A study of Mus musculus with 21 samples.

Results

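The 9 genes described here are Aldh1a1, Moxd1, Tmem132a, B630019K06Rik, Fam135a, Spsb1, Btc, Limch1 and 9330159M07Rik. They were selected on measured values of these libraries, namely tight replicates and a shift in transplant hematopoietic stem cells (HSC), so that shift is described below without a test. All 9 were found by symbol among the 13399 genes listed in both HSC tables, which list 13511 and 13634 genes with usable symbols. The mice were of genotype MMTV-PyMT in every group, a transgene in which a viral promoter drives an oncogene in mammary epithelium. The series holds 21 libraries in 7 groups of 3. Sorted HSC came from sedentary mice and from physically active mice at week 12, and at week 14 from sedentary mice that had received cells of a physically active mouse, called transplant HSC here. Mammary tumours came from sedentary and from physically active mice at week 12 and at week 18. The labels number the libraries as biological replicates, and the sorting markers, the animals behind each library and the recipients' remaining own cells are not given in the sources used here. Transplantation, the recipient's inactivity and the later week all mark the transplant group, and they cannot be told apart.

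Aldh1a1 encodes a cytosolic enzyme that oxidises retinaldehyde to retinoic acid, and aldehyde dehydrogenase activity is widely used to enrich blood stem and progenitor cells by flow cytometry. Moxd1 belongs to the family of copper-dependent monooxygenases that includes dopamine beta-hydroxylase. Spsb1 is a SOCS box protein that brings substrates, inducible nitric oxide synthase among them, to a cullin ubiquitin ligase. Btc encodes betacellulin, a ligand of the EGF receptor family, and Limch1 a LIM and calponin homology domain protein that activates non-muscle myosin. Tmem132a encodes a single-pass membrane protein, and Fam135a a protein about which little is established. 9330159M07Rik is a long non-coding RNA in RefSeq, and B630019K06Rik is a transcribed pseudogene in RefSeq and a protein-coding gene in GENCODE.

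In the GRCm38 annotation (GENCODE M21), which is the mm10 build named in the submitters' processing notes, Aldh1a1 lies at chr19:20492715-20643465, Moxd1 at chr10:24223517-24302790 and Tmem132a at chr19:10857822-10869940. B630019K06Rik is a gene of 1 exon at chrX:8892382-8894964, and Fam135a lies at chr1:24011093-24100341. Spsb1 spans chr4:149896283-149955043, Btc chr5:91357261-91402994, Limch1 chr5:66745827-67057158 and 9330159M07Rik chr9:88840236-88858870. An exon of Aldh1a1 overlaps C730002L08Rik on the opposite strand, and exons of Tmem132a and Spsb1 overlap Slc15a3 and Gm13070 in the same way. Exons of 9330159M07Rik overlap Trim43c and Gm9775 on the opposite strand and the small nucleolar RNA Gm26135 on its own strand. The libraries were stranded, but how strand was used in counting is not given in the sources used here, so reads of these pairs may be shared. A search of transcript sequences for copies with at least 70% identity found 1, Aldh1a7, with 88.8% identity over 85.6% of the Aldh1a1 transcript.

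RefSeq (GRCm38.p6) gave start site windows for 7 of the 9 genes, each running from 250 bases before to 50 bases after the start. A single window per gene is described unless stated. The windows of both genes that were higher in transplant HSC and of 2 that were lower are shown, because their CpG content differs within each direction. They are written 5′ to 3′ on the strand of the gene, and capitals mark CpG dinucleotides.
Aldh1a1 (higher, chr19:20601718-20602017, plus strand): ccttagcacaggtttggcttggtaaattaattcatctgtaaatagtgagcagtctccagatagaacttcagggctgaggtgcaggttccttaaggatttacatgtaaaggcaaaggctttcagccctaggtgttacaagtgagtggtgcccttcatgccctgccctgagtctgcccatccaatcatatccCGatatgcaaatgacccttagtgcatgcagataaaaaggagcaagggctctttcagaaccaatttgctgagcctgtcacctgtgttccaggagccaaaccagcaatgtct
9330159M07Rik (higher, chr9:88858821-88859120, minus strand): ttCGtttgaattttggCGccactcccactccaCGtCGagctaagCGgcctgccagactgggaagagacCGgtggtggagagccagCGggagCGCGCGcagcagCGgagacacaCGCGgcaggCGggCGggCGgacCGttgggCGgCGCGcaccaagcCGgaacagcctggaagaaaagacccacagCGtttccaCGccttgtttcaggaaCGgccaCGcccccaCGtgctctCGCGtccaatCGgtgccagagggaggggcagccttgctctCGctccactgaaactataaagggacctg
Moxd1 (lower, chr10:24223267-24223566, plus strand): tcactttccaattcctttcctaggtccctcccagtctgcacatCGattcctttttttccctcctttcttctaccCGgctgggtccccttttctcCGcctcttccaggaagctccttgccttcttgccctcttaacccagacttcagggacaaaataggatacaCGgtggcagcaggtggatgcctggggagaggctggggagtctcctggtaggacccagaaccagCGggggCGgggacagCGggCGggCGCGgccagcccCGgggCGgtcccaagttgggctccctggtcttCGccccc
Spsb1 (lower, chr4:149954957-149955256, minus strand): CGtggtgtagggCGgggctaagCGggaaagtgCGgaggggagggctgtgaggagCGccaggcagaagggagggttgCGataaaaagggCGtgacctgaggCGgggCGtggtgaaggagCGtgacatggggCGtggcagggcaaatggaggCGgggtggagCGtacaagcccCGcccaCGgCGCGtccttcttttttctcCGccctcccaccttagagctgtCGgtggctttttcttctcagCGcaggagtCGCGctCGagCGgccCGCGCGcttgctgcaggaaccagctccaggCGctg
The Aldh1a1 window holds 1 CpG and the 9330159M07Rik window 30, although both genes were higher. Among the genes that were lower, Moxd1 has 13, Spsb1 28, Fam135a 29, Limch1 35 and Btc 5, against a median of 7 over 32851 windows. The letters TATAAA and AGATAA, then TGTGGT and CCGGAA, and last GAGGAA and CACGTG with AGGTCA were searched on both strands. AGATAA was found in the Aldh1a1 window (11.2% of all windows hold it), AGGTCA in that of Spsb1 (16.3%), and TATAAA (13.6%), CCGGAA (14.9%) and CACGTG (7.15%) in that of 9330159M07Rik. None of the 7 motifs was found in the windows of Moxd1, Fam135a, Limch1 or Btc. A match of letters is a description and not a binding site.

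The HSC columns held 16405931 to 72412531 recovered reads and the tumour libraries 20838963 to 28973775. Replicate 3 of each HSC group was the deepest, with at least 58497823 reads, and its library name has another style, so that depth marks a possible batch that crosses the groups. Active HSC library 6 of the labels is held by a column in each HSC table, and these columns differ at 13105 of 13399 shared genes, whereas active replicates 1 and 3 differ between the tables at 4 genes each. They cannot both be that library, so they are called the column 6 of the transplant table and the column 6 of the sedentary table and given apart. Values below are normalized counts, that is, reads divided by 1 scaling factor per library over all 10 HSC columns. The stem and progenitor markers Kit and Cd34 were detected in every column (5112 to 7261 and 5934 to 17988 normalized counts). Others of that list were low, with 31.1 to 120 for Procr and 2.82 to 113 for Fgd5. The primary granule marker Mpo held 52331 to 240602, and the purity of the sorted cells was not tested. The defining T cell marker Cd3e was not listed in both HSC tables.

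Aldh1a1 was at like low levels in sedentary HSC and in active replicates 1 and 3, and about 5 times as high in transplant HSC. Its normalized counts were 34.3, 37.0 and 40.0 in the sedentary libraries, 44.2 and 48.3 in active replicates 1 and 3, and 210, 200.8 and 170 in the transplant libraries. The column 6 of the transplant table held 39.1, inside the sedentary range, and the column 6 of the sedentary table held 682, above every transplant library. The 3 sedentary libraries varied by 7.60% (SD as a share of the mean) and the 3 transplant libraries by 10.8%. The transplant mean of 194 ± 20.9 was 5.22 times the sedentary mean of 37.1 ± 2.82 (SD, n = 3 each), a difference of 2.35 on the log2(value + 1) scale. The near copy Aldh1a7 held 3, 2 and 28 reads in transplant and 1, 0 and 9 in active replicates 1, 2 and 3 of the transplant table, against 149, 164 and 417 and 37, 29 and 117 reads of Aldh1a1. Aldh1a7 was thus a minor share of the reads in all 6 libraries.

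9330159M07Rik was the other gene that was higher in transplant HSC. It held 22.9, 21.2 and 27.0 normalized counts in sedentary HSC and 124, 120 and 139 in transplant HSC, and these groups did not overlap. Active replicates 1 and 3 held 102 and 41.7, so active replicate 1 lay close to the transplant libraries and active replicate 3 closer to the sedentary ones. In the columns numbered 6 it was at 32.4 in the transplant table and at 175 in the sedentary one. The transplant mean of 128 ± 10.2 was 5.40 times the sedentary mean of 23.7 ± 2.99 (SD, n = 3 each), a log2 difference of 2.39.

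Moxd1 was high in sedentary and in active HSC and low in transplant HSC. Its normalized counts were 252, 331 and 193 in the sedentary libraries, 173 and 164 in active replicates 1 and 3, and 24.0, 15.9 and 16.3 in the transplant libraries. Moxd1 was at 190 in the column 6 of the transplant table, next to the other active columns, and at 1.41, from a single read, in that of the sedentary table. The sedentary mean of 259 ± 69.5 was 13.8 times the transplant mean of 18.8 ± 4.55 (SD, n = 3 each), a log2 difference of -3.71. Active replicates 1 and 3 and the column 6 of the transplant table were below the lowest sedentary library by less than they were above the transplant libraries, whereas the column 6 of the sedentary table was below every transplant library.

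Limch1 was also low in transplant HSC, at low counts throughout. It held 21, 18 and 29 reads in the sedentary libraries, 12 and 45 in active replicates 1 and 3, and 1, 0 and 2 in the transplant libraries. Between the columns numbered 6, that of the transplant table held 11 reads and the other 1. Over the group totals of 68 and 3 reads, scaled for depth, the level was 28.3 times as high in sedentary as in transplant HSC (95% counting interval 9.29 to 141), an interval that covers counting error only. On the normalized scale active replicates 1 and 3, at 14.3 and 18.6, overlapped the sedentary libraries, of which the lowest held 14.5. Limch1 was the most variable member in sedentary HSC, at 40.2%.

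Btc, the EGF family ligand, was close to its detection limit throughout. It held 3, 3 and 15 reads in sedentary HSC and 0 in each transplant library, and active replicates 1 and 3 held 0 and 16. Of the columns numbered 6, that of the transplant table held 2 reads and the other 0. Against a floor of 3 reads over the whole transplant group, the Btc level was 8.75 times as high in sedentary HSC. In active replicates 1 and 3 together it was 6.50 times that floor. These ratios leave out the counting error of the 21 sedentary and 16 active reads, and all 16 came from active replicate 3. The active libraries themselves covered the whole range from 0 up, so the order of active and transplant HSC was not resolved for Btc at this depth.

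Tmem132a, B630019K06Rik and Fam135a had nearly the same profile over the HSC libraries. Tmem132a held 165, 197 and 180 normalized counts in sedentary HSC, 149 and 154 in active replicates 1 and 3, and 49.4, 42.9 and 45.8 in transplant HSC. Its column 6 values were 159 in the transplant table and, below every transplant library, 16.9 in the sedentary one. The sedentary mean of 181 ± 16.2 was 3.93 times the transplant mean of 46.0 ± 3.29 (SD, n = 3 each), a log2 difference of -1.95.

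B630019K06Rik held 108, 84.6 and 117 normalized counts in sedentary HSC, 76.5 and 85.5 in active replicates 1 and 3, and 19.8, 23.3 and 21.7 in transplant HSC. Its column 6 values were 94.4 in the transplant table and 12.7 in the sedentary table. The active replicates overlapped the sedentary range and lay far from the transplant range. The log2 difference of transplant from sedentary HSC was -2.20, a ratio of means of 4.78.

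Fam135a held 121, 145 and 133 normalized counts in sedentary HSC, 95.6 and 149 in active replicates 1 and 3, and 29.7, 26.9 and 33.1 in transplant HSC. Its column 6 values were 119 in the transplant table and 7.05 in the sedentary table, the latter from 5 reads. Active replicates 1 and 3 lay on either side of the sedentary libraries, so those groups could not be ordered. The log2 difference of transplant from sedentary HSC was -2.12, a ratio of means of 4.45.

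For Spsb1, the ubiquitin ligase adaptor, active replicates 1 and 3 lay 49.0% and 41.8% of the way from the sedentary to the transplant mean on the log2 scale. It held 211, 226 and 193 normalized counts in sedentary HSC, 109 and 120 in active replicates 1 and 3, and 52.2, 58.8 and 53.5 in transplant HSC. In the transplant table its column 6 held 200.9, inside the sedentary range, and its column in the sedentary table held 125, next to active replicates 1 and 3. The sedentary mean of 210 ± 16.4 was 3.83 times the transplant mean of 54.8 ± 3.46 (SD, n = 3 each), a log2 difference of -1.92. Spsb1 was the 1 member whose column 6 of the sedentary table lay nearer to the sedentary than to the transplant mean.

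**Figure D1:**
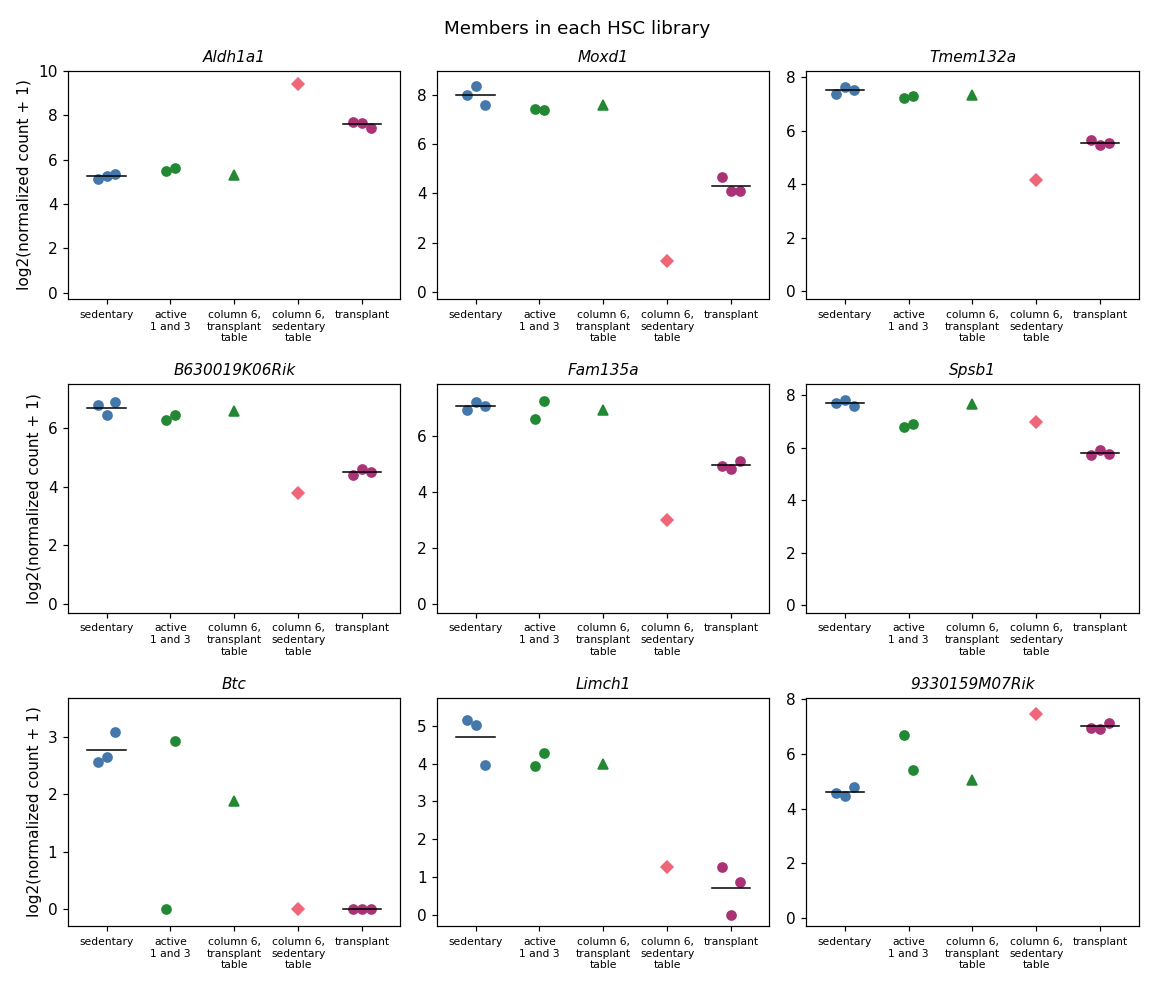
Each panel plots 1 gene, with log2(normalized count + 1) on the y axis and every HSC column as a point, sedentary and transplant means as lines, and the 2 columns numbered 6 set apart. The transplant points stand apart from the sedentary ones in all 9 panels, and the column 6 of the sedentary table (red diamond) lies on the transplant side in every panel but that of Spsb1.

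The sedentary and transplant libraries did not overlap at 9 of 9 genes, beside 38.8% of the 13348 genes tested. This count is fixed in large part by the choice of the genes and nothing is read from it. Their ranks by p in that comparison ran from 2 for Aldh1a1 to 170 for Limch1 among the 13348 genes, of which 1553 (11.6%) had a limma adjusted p under 0.05. Without a single library that number lay between 237 and 1674, with 298 and 237 genes without sedentary replicates 1 and 2 and 481 and 257 without transplant replicates 1 and 2. The sizes are given apart for the deep replicate 3 and for replicates 1 and 2, whose equal signs are fixed by the choice of genes with groups that do not overlap. Aldh1a1 differed by 2.49 within replicates 1 and 2 and by 2.06 within replicate 3, and Moxd1 by -3.82 and -3.48. Limch1 differed most between the depths, with -4.45 and -3.09.

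**Figure D2:**
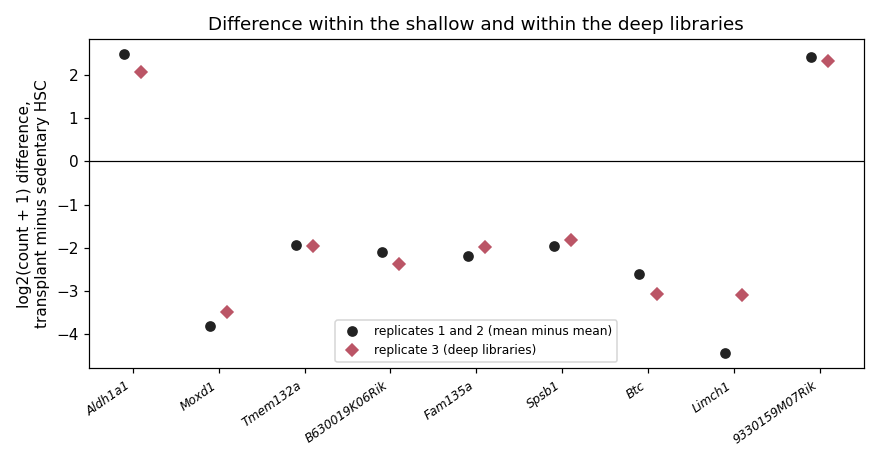
The y axis gives the log2(count + 1) difference of transplant minus sedentary HSC for each gene, once as the mean of replicates 1 and 2 (black circles) and once for the deep replicate 3 (red diamonds). The common side of 0 is fixed by how the genes were chosen, and the sizes are the description, with 2.42 and 2.33 for 9330159M07Rik and -1.95 and -1.96 for Tmem132a.

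Transplant HSC were also compared with active HSC. This comparison shares active replicates 1 and 3, but not the column numbered 6, with that of active and sedentary HSC. Here 8 of 9 genes had no overlap between the groups, Btc being the exception, beside 25.2% of 13631 genes tested. That number, too, is fixed in large part by the choice of the genes, and nothing is read from it. Aldh1a1, Moxd1, Tmem132a and B630019K06Rik were among 7 genes (0.0514%) with a limma adjusted p under 0.05, and this is among the values that chose them. The log2 differences of transplant minus active HSC were 2.11 for Aldh1a1 and 1.28 for 9330159M07Rik. Moxd1 had -3.19, Limch1 -3.36, Tmem132a -1.73, B630019K06Rik -1.94, Fam135a -1.97 and Spsb1 -1.32. Btc had -1.60, a fitted value that depends on the pseudocount, as its transplant libraries are all at 0. With the replicate number as a block, 0 genes were called. With the column 6 of the sedentary table in place of the other, the signs were the same and every value was nearer to 0, at 0.76 for Aldh1a1, 0.49 for 9330159M07Rik, -1.07 for Moxd1, -2.54 for Limch1 and -0.67 for Tmem132a. B630019K06Rik, Fam135a, Spsb1 and Btc then lay between -1.09 and -0.66, and 1 gene in all was called.

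The comparison of active with sedentary HSC asked whether the genes differed with activity without a transplantation. Its libraries are among those whose values chose the 9 genes, so their p-values and counts here are no independent test. No gene of 13511 tested (0%) passed a limma adjusted p of 0.05, 1251 had an unadjusted p under 0.05, and edgeR called 0 and DESeq2 274 genes. The groups did not overlap at 5 of 9 genes (Aldh1a1 and 9330159M07Rik higher in active HSC, Moxd1, Tmem132a and Spsb1 lower), beside 19.7% of all genes tested. Spsb1 went from 191 ± 15.6 in sedentary to 107 ± 7.71 in active HSC in the scaling of that table (SD, n = 3 each), a difference of -0.82 ± 0.13 (standard error, limma adjusted p = 0.475). 9330159M07Rik differed by 1.90 ± 0.52 at the same limma adjusted p. DESeq2 on the recovered reads gave these 2 genes adjusted p-values of 0.0393 and 0.0235, and the authors' deposited table gave 0.0463 and 0.0287. These fits all used the column 6 of the sedentary table. Over the alternatives, the adjusted p ran from 0.0393 to 0.947 for Spsb1 and from 0.0235 to 0.947 for 9330159M07Rik. The value of 0.947 came, for each gene, with the column 6 of the transplant table in place of the other.

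The size of the active against sedentary difference depended at every member on which column numbered 6 entered. Aldh1a1 differed by 1.60 and Moxd1 by -2.61 with the column 6 of the sedentary table, with standard errors of 1.08 and 1.71, and by 0.23 and -0.52 with the column 6 of the transplant table. Tmem132a, B630019K06Rik and Fam135a differed by -1.28, -1.19 and -1.45 with the first column and by -0.23, -0.26 and -0.15 with the second. Limch1 and Btc had -1.52 and -1.72 with the first column, and -0.64 and -1.17 with the second. Spsb1 and 9330159M07Rik differed by -0.82 and 1.90 with the first column. With the second they differed by -0.60 and 1.10, each at a limma adjusted p of 0.947. The second column held 200.9 normalized counts of Spsb1, inside the sedentary range, so Spsb1 then overlapped between the groups. The limma adjusted p of the 7 genes other than Spsb1 and 9330159M07Rik lay between 0.475 and 0.554 with the first column.

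The place of each active column between the sedentary and the transplant mean was read on the log2(count + 1) scale. The column 6 of the sedentary table was nearer to the transplant mean at 8 of 9 genes and beyond all transplant libraries at 6 of them, with 177% of the way for Aldh1a1, 181% for Moxd1 and 191% for Fam135a. Among the 1553 genes called between transplant and sedentary HSC, 94.9% were nearer to transplant in that column, and among all 13348 genes 77.6%. The column 6 of the transplant table was nearer to transplant at 0 of 9 genes, beside 3.54% of called genes and 25.0% of all genes. Active replicate 3 was nearer at 0 of 9 genes (13.8% and 38.7%) and active replicate 1 at 2 of 9, Btc and 9330159M07Rik (65.2% and 55.3%). The 2 columns with the number 6 thus lay on opposite sides at 8 of the 9 genes. Active replicates 1 and 3 and the column 6 of the transplant table are among the values that chose the genes. Their distance from the transplant mean is fixed in large part by that choice, and nothing is read from their counts.

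**Figure D3:**
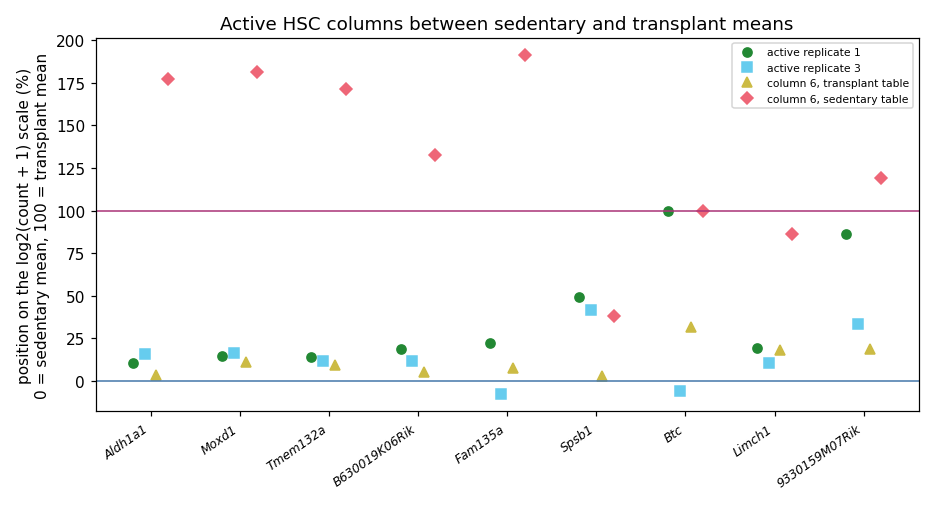
For each gene the y axis gives the place of the 4 active columns, in percent of the way from the sedentary mean (0, blue line) to the transplant mean (100, purple line) on the log2(count + 1) scale. The column 6 of the sedentary table (red diamonds) lies between 86.0% and 191% at every gene but Spsb1 (38.4%), while the column 6 of the transplant table (yellow triangles) lies between 3.12% and 31.8%.

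Markers of other blood cells also differed between the HSC columns. The 9 neutrophil markers, all listed, summed to 2925 to 3601 normalized counts in sedentary HSC, 30667 to 33934 in transplant HSC and 124419 in the column 6 of the sedentary table, against 3381 in that of the transplant table. All 9 were higher in transplant than in sedentary HSC at a limma adjusted p under 0.05, as were 5 of 5 primary granule and 6 of 6 megakaryocyte markers. These and the marker counts below stand beside 11.6% of all genes called in this comparison. The 6 megakaryocyte markers summed to 2111 to 3811 in sedentary HSC, 8977 to 25983 in transplant HSC and 26943 in the column 6 of the sedentary table. Of 6 lymphoid priming markers tested, 4 were lower in transplant HSC and 0 higher. Dntt, which adds nucleotides at antigen receptor joints, held 973 to 1365 normalized counts in sedentary HSC, 24.0, 0 and 56.4 in transplant HSC and 1.41 in the column 6 of the sedentary table. Of the 12 stem and progenitor markers 3 were lower and 1 higher in transplant HSC, and their sum was 25800 to 28784 in sedentary and 16118 to 19050 in transplant HSC. Cd34 carried most of that sum's decrease, with 14287 to 17988 in sedentary and 5934 to 8393 in transplant HSC, while Kit held 5112 to 6433 and 5690 to 6958. In active replicate 1 the neutrophil sum was 15753, against 4789 in active replicate 3. On the way from the sedentary to the transplant mean, 9330159M07Rik lay at 86.3% in active replicate 1 and Spsb1 at 49.0%. Aldh1a1, Moxd1, Tmem132a, B630019K06Rik, Fam135a and Limch1 lay there between 10.6% and 22.1%, and Btc had 0 reads. The part of these markers in the values of the 9 genes was not tested. In bulk RNA, fewer cells of a type and less RNA per cell cannot be told apart.

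**Figure D4:**
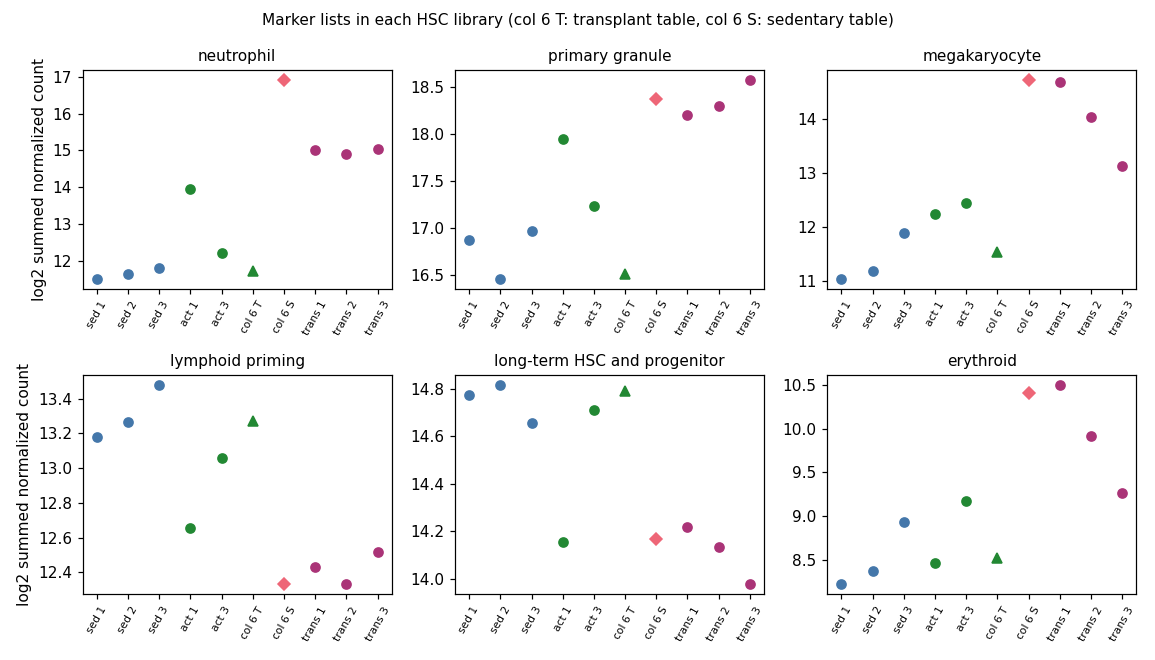
Each panel plots the log2 of the summed normalized count of a marker list (y axis) in the 10 HSC columns (x axis), colored as in the plot of the 9 genes by HSC column. Neutrophil, primary granule and megakaryocyte sums of the column 6 of the sedentary table and of the 3 transplant libraries lie above those of the sedentary libraries, and the lymphoid priming sums below.

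The other genes of the pathways to which the members belong were mostly not called between transplant and sedentary HSC, a comparison in which 11.6% of all genes tested were called. Of 30 other retinoid and aldehyde genes tested, 3 rose and 0 fell, a share near that of all genes, with a median log2 difference of -0.09 beside a median of -0.00044 over all genes. Aldh3b1, an aldehyde dehydrogenase of lipid aldehydes, rose by 1.91 (limma adjusted p = 0.0105), and the retinal reductases Rdh12 and Dhrs3 by 1.61 and 1.81 (0.0197 and 0.0254). Aldh2, the mitochondrial acetaldehyde enzyme, held 8831 to 10931 normalized counts in sedentary and 10948 to 14355 in transplant HSC and was not called. Of 10 SPRY and SOCS box ligase genes other than Spsb1, Nos2 alone rose, by 4.12 (limma adjusted p = 0.0228). Nos2 encodes inducible nitric oxide synthase, a Spsb1 substrate, and held 22.9, 3.53 and 6.00 normalized counts in sedentary and 215, 91.8 and 199 in transplant HSC. In the column 6 of the sedentary table Nos2 held 1.41, on the sedentary side.

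Of 9 EGF family genes other than Btc, the receptor Erbb3 alone rose, by 1.18 (limma adjusted p = 0.0195). For the EGF family and the SOCS box genes, 1 called gene of 9 and of 10 is likewise near the 11.6% of all genes. Of 10 myosin pathway genes other than Limch1, the light chains Myl6 and Myl12b and the kinase Mylk rose, by 0.51, 0.70 and 1.80 (limma adjusted p = 0.0416, 0.0484 and 0.0484), and 0 fell, beside the same 11.6%, and nothing particular to the list is read from 3 genes. Pam, the 1 other copper monooxygenase tested, differed by 0.22 and was not called, and no other TMEM132 or FAM135 gene was tested in this comparison. In fits without a single library, Aldh3b1 stayed past the threshold in 6 of 6, Erbb3 in 3, Dhrs3, Rdh12 and Nos2 in 2 each, and Myl6, Myl12b and Mylk in 1 each, with the same direction throughout. With the replicate number as a block, although by the correlation check the numbers do not pair these libraries, Aldh3b1 was the 1 of these 8 genes that stayed past the threshold (limma adjusted p = 0.0465), and the other 7 had adjusted p-values between 0.0513 for Nos2 and 0.141 for Mylk. With a term for the deep replicate 3, added after the data were seen, Mylk had an adjusted p of 0.0699. Between active and sedentary and between transplant and active HSC, limma called 0 of these other pathway genes.

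The genes whose profile was most like that of a member were ranked by the root mean square difference of centred log2(count + 1) values over 8 HSC columns, with both columns numbered 6 left out, among 12247 genes. Nearest to Aldh1a1 were Il6 (0.28), Mgll (0.31) and Tlr6 (0.31), and nearest to 9330159M07Rik were Mcf2l (0.20), B430306N03Rik (0.21) and Mocos (0.21). Tmem132a was nearest to Fam135a (0.19), Mapk11 (0.23) and B630019K06Rik (0.23), so 3 of the 9 genes were among one another's nearest. Moxd1 and Limch1 were each other's nearest (0.35), followed by Prdm16 and Mn1 for Moxd1 and by Dsg2 and Prdm16 for Limch1. Nearest to Spsb1 were Pmepa1 (0.15), Fgfr1 (0.21) and Sox4 (0.22), and nearest to Btc were Paqr5 (0.41), Gli3 (0.47) and Map3k19 (0.50). These genes share libraries and scaling with the members, and the likeness is a description.

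The tumours gave libraries that the choice of the genes did not use. All 9 genes were detected in all 12 tumours. At week 12, active and sedentary tumours overlapped at all 9 genes (0 of 9 without overlap, beside 9.13% of 19162 genes tested), and 0 of 9 passed a limma adjusted p of 0.05 (0.517%). At week 18, 1 of 9 had no overlap, beside 13.6% of 18939 genes tested, and 0 of 9 were called (0%). In all, limma called 0 genes at week 18, 1131 had an unadjusted p under 0.05, and edgeR called 0 and DESeq2 52.

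B630019K06Rik was the member without overlap at week 18, with 93.8, 82.0 and 68.4 normalized counts in sedentary and 61.4, 39.3 and 58.8 in active tumours. Its log2 difference was -0.62 ± 0.24 (standard error, limma adjusted p = 0.824). Moxd1 held 797, 1210 and 1189 normalized counts in sedentary and 515, 889 and 216 in active tumours at week 12, a log2 difference of -1.18 ± 0.55 (standard error, limma adjusted p = 0.970). At week 18 Moxd1 held 699, 770 and 1151 in sedentary and 1241, 851 and 2154 in active tumours, a log2 difference of 0.62 ± 0.40 (standard error, limma adjusted p = 0.824). The groups overlapped at both times. At week 18 the replicate numbers pair by the correlation check alone. Moxd1 was higher there in the active tumour of 3 of 3 same-numbered pairs. The labels state no pairing, the share of all genes with such a count was not computed, and nothing is read from it. With the replicate number as a block, Moxd1 differed by 0.62 ± 0.24 (standard error, limma adjusted p = 0.689). The difference between the weeks was not tested.

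Aldh1a1 was tight in sedentary tumours of week 12, with 300.0, 324 and 344 normalized counts, and spread widely in active ones, with 342, 53.6 and 1279. At week 18 active replicate 1 held 3497, against 168 and 119 in the other active and 30.6, 338 and 170 in the sedentary tumours. Its log2 differences were -0.16 and 1.76, with standard errors of 1.14 and 1.58 and limma adjusted p-values of 0.992 and 0.832. At week 12 its sign turned with the test, to 0.77 in edgeR. The near copy Aldh1a7 reached 1157 in the active tumours of week 12 and 157 in those of week 18, and how far the copies share reads was not tested.

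Spsb1 was among the steadiest members in tumours, with 450 to 535 normalized counts over the 6 libraries of week 12 and 433 to 668 over those of week 18, and its log2 differences were 0.039 and 0.013. Btc, near its detection limit in HSC, held 146 to 284 normalized counts in tumours of week 12 and 174 to 261 in those of week 18. Limch1 ranged from 608 to 1875 at week 12 and from 829 to 1912 at week 18, Tmem132a from 1901 to 4765 and from 3109 to 5806, and Fam135a from 425 to 728 and from 517 to 631. 9330159M07Rik held 74.2 to 138 and 59.7 to 167. Limma adjusted p-values of these 6 genes lay between 0.824 and 0.999 over both weeks.

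**Figure D5:**
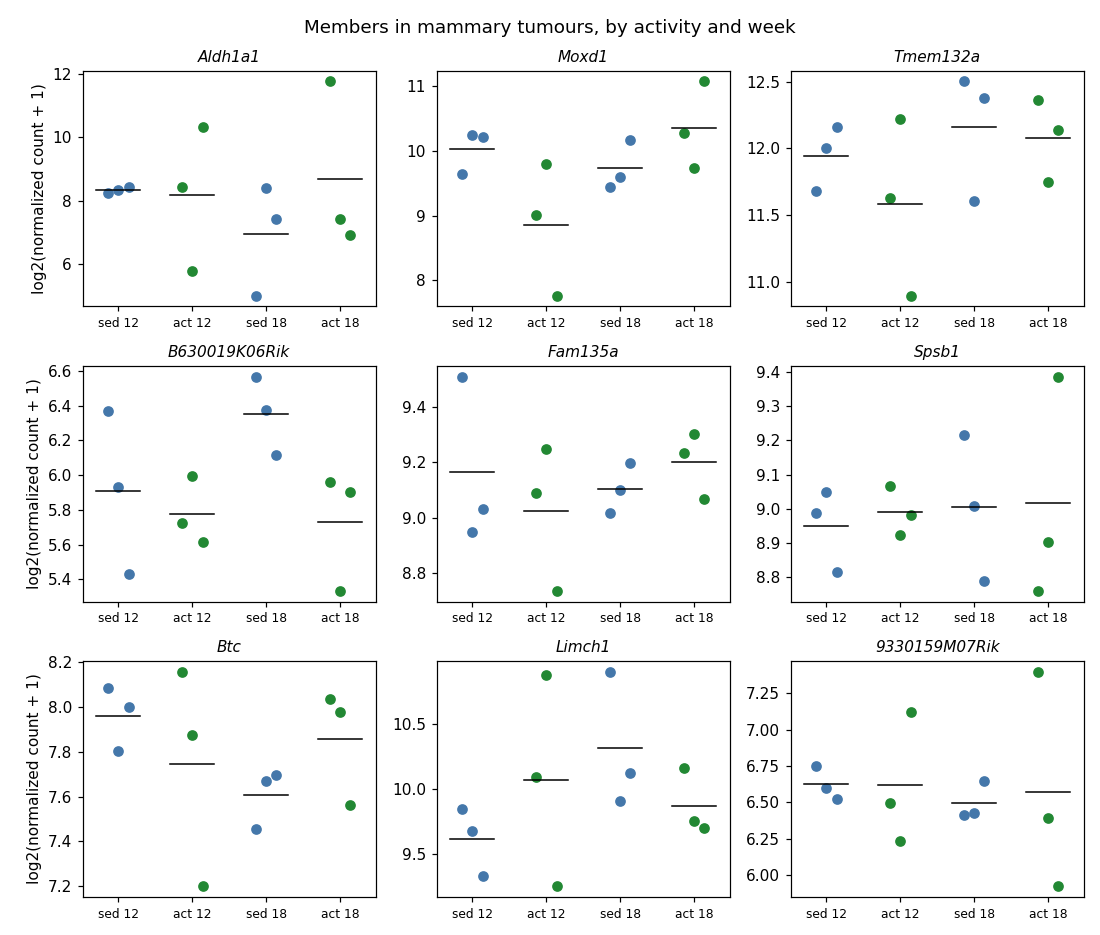
Each panel plots 1 gene, with log2(normalized count + 1) on the y axis, for the 3 sedentary (sed, blue) and 3 active (act, green) tumours of week 12 and week 18, with group means as lines. The y axes do not start at 0. The groups of each week overlap in every panel except B630019K06Rik at week 18, and the active tumours of Aldh1a1 range from 53.6 to 1279 and from 119 to 3497.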

How the data were processed

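Per the labels' protocols, a kit for stranded mRNA was used for all libraries. The submitters' processing notes name build mm10, and the aligner and counter are not given in the sources used here. The deposited tables hold a normalized signal per gene, which the authors made as read counts over 1 factor per library, since whole reads were recovered (tolerance 0.1). The log2 fold changes and adjusted p-values of the authors' deposited table were also read, with the signs of the HSC table, sedentary over active, turned round.

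Main fits used limma 3.58.1 in R 4.3.3 on log2(value + 1), over genes whose mean reached 1 in a group, with Benjamini-Hochberg adjustment over all genes. Transplant and sedentary HSC were joined on recovered reads and scaled by the median of ratios. edgeR 4.0.16 and DESeq2 1.42.0 on recovered reads were alternatives. Fits were tested on simulated data. Copies were searched in transcripts, not in proteins as planned. p-values measure the spread between these libraries. Intervals cover counting error only, and the Btc floor covers that of the transplant reads alone.

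The 9 genes, the lists and the tests were chosen with earlier results of these data known. Named genes were the 9, their 3 nearest profiles, and up to 3 called genes of each pathway list. Aldh2 and Pam, pathway genes that were not called, and the marker genes named were added outside that rule after their values were seen. Same-numbered libraries deviated together in transplant against active HSC (correlations 0.102, 0.108 and 0.306) and at week 18 (0.184, 0.183 and 0.180), over 0.1 in every pair, so by that rule these numbers pair. In transplant against active HSC, however, replicate 2 correlated more with another number (0.115) than with its own (0.108). The labels state no pairing.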

Additional observations from a re-analysis of the deposited data

How the results depend on the processing

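In HSC no member changed direction in any alternative, which covered pseudocount, filters, scaling, edgeR, DESeq2, the replicate block, the other column numbered 6, replicates 1 and 2 alone, each library left out and, added after the data were seen, a term for replicate 3. In both comparisons with transplant HSC the direction is fixed in large part by the choice of the genes, and nothing is read from it. Genes called between active and sedentary HSC numbered 1 with a pseudocount of 0.1 and 274 in DESeq2, against 0. Between transplant and active HSC they numbered 1 in edgeR, 1134 in DESeq2, 1 with the other column numbered 6, 0 with replicates 1 and 2 alone, 0 with the replicate 3 term and 0 to 79 without a single library, against 7. The replicate block, whose numbers pair there by the correlation check alone, left 0. Between transplant and sedentary HSC they numbered 2569 in edgeR, 3174 in DESeq2, 99 with the replicate block and 237 to 1674 without a single library, against 1553. At week 12 they numbered 208 in DESeq2, 0 with the replicate block and 9 to 71 without a single library, against 99. At week 18 they numbered 5 with a pseudocount of 0.1, 52 in DESeq2 and 0 to 5 without a single library, against 0, and the replicate block changed no call. The cause was not tested.

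In tumours the signs of small differences turned. At week 12 Aldh1a1 was 0.77 in edgeR and 0.77 in DESeq2, and 9330159M07Rik 0.035 and 0.022. Without a single library of week 12, Aldh1a1 ran from -1.24 to 1.04, B630019K06Rik from -0.37 to 0.097, Fam135a from -0.25 to 0.034, Spsb1 from -0.028 to 0.089, Btc from -0.42 to 0.055 and 9330159M07Rik from -0.26 to 0.19. Without a single library of week 18, Tmem132a ran from -0.36 to 0.093, Spsb1 from -0.17 to 0.14 and 9330159M07Rik from -0.34 to 0.40. Depth limits Btc and Limch1 in HSC, whose fitted log2 differences depend on the pseudocount.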
